A study of Mus musculus with 2 samples.

Results

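The stefin A cluster genes analysed here are Stfa1, Stfa2, Stfa2l1, Cstdc4, Cstdc5 and Csta3, 6 of the 35208 gene rows of a single-cell RNA-seq count matrix of inflamed mouse ear skin. These genes encode small cytosolic inhibitors of the papain-like cysteine proteases, the family to which most lysosomal cathepsins belong, and they lie side by side as near copies of one another. Stefins bind the active-site cleft of a cathepsin reversibly and are known for guarding the cytosol against proteases that leak from lysosomes and granules. In the mouse, stefin A transcripts are known from neutrophils and other myeloid cells, and from stratified epithelia. The 6 genes were selected on measured values, because in earlier results of these same data they led a group of neutrophils. Their level in neutrophils, their spread among neutrophils and their excess over other cells are therefore given as descriptions, without a test.

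The cells came from wild-type (WT) BALB/c mice and from Ccr2-/- mice of the same strain (Ccr2tm1Mae allele), all young adult males, with IgE-dependent chronic allergic inflammation. The mice of all 4 pools had received 300 µg of TNP-specific IgE intravenously and, a day later, 10 µg of TNP-coupled ovalbumin in the ear skin. Ears were taken on day 3 or day 5 after challenge, and each of the 4 combinations of genotype and day was marked with a hashtag antibody and loaded with the others as 10000 cells in 1 cDNA library. Each combination is thus 1 pool without a replicate, and the number of mice per pool is not given in the sources used here. Of 8953 barcodes, 7118 carried 1 clear hashtag and at most 20% mitochondrial reads: 1543 cells from WT ears of day 3, 1037 from WT ears of day 5, and 2191 and 2347 from the Ccr2-/- ears of the same days. Ccr2 itself, the targeted gene, had 358 and 350 reads per 1000000 reads (CPM) over the WT pools of day 3 and day 5 and 13.5 and 11.8 CPM over the Ccr2-/- pools.

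Neutrophils were taken as cells in which S100a8 and S100a9, the calprotectin subunits that fill the neutrophil cytosol, together made up at least 5000 CPM (the gate). The gate held 56 and 5 cells of the WT pools of day 3 and day 5 and 331 and 719 cells of the Ccr2-/- pools, that is 3.63%, 0.482%, 15.1% and 30.6% of the cells of each pool. The other defining genes of the type were present in all 4 pools, with the G-CSF receptor Csf3r at 1019 to 2657 CPM and the chemokine receptor Cxcr2 at 1773 to 2679 CPM, while Ly6g was at 0 in both WT pools and at 25.1 and 18.0 CPM in the Ccr2-/- pools. All 7 markers of the neutrophil list had reads in each pool, but the list includes S100a8 and S100a9, which set the gate. Of the 1111 gated cells, 1071 (96.4%) also fell into 2 neutrophil-like clusters that were built without the stefin and cystatin genes. S100a8 and S100a9 were not left out of the clustering and served as naming markers, so this overlap is no independent check of the gate. The 40 gated cells in other clusters were deeper, with a median of 33794 reads against 9602, and markers of fibroblasts (6 of 6 read) summed to 43880 and 15793 CPM in those of the Ccr2-/- pools against 1604 and 2041 CPM in the gated neutrophil-like cells. In the 5 gated cells of WT day 5, 1 fibroblast-like barcode held 42151 of 78521 reads and had no family read. Values of the family sum and of some members are therefore also given for the gated cells of the neutrophil-like clusters alone. Levels of the cathepsins and of the other listed genes are those of the whole gate.

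The 6 genes span 252 kb of chromosome 16 (GRCm38.p6, chr16:36156811-36408363), Stfa2l1, Cstdc4, Csta3 and Stfa1 on the plus strand and Cstdc5 and Stfa2 on the minus strand, with the relatives Csta2 and Cstdc6 between them and Csta1 and Stfa3 on either side. Stfa2l1 lies at 36156811-36161948, Cstdc4 at 36184212-36188111, Csta3 at 36210403-36217788, Stfa1 at 36277148-36285371, Cstdc5 at 36359382-36367570 and Stfa2 at 36403946-36408363. The aligned transcripts of the 15 pairs of members were 75.6% to 97.1% identical, with a median of 80.8%. Stfa1 and Cstdc5 were the closest pair at 97.1%, followed by Stfa2 and Stfa2l1 at 96.0%, whereas the Cstdc4 transcript was at most 78.9% identical to another member. Of all 50-base windows of a transcript, 23.1% of those of Stfa1, 23.0% of Cstdc5, 16.8% of Stfa2l1 and 14.7% of Stfa2 occurred in another member, against 0% for Cstdc4 and Csta3. With genes outside the 6 included, the shares were 26.9% for Stfa1, 33.5% for Cstdc5, 24.6% for Stfa2l1, 15.9% for Stfa2, 10.8% for Cstdc4 and 0% for Csta3. Of 100-base windows, 5.60% of Stfa1 and 5.58% of Cstdc5 occurred in another member, against 0% for Stfa2l1, Stfa2, Cstdc4 and Csta3. With genes outside the 6 included, 13.1% of Cstdc5 and 0% of Stfa2l1 and Stfa2 were shared. Reads that lie within a shared window cannot be assigned to a gene. How uncertain this leaves the split within the pairs Stfa1 and Cstdc5 and Stfa2l1 and Stfa2 depends on read length, which was not examined. The sum of the 6 genes (the family) is therefore given beside each member. The reference is that of C57BL/6J, and what strain differences of BALB/c did to the assignment was not tested.

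The promoters of the 6 genes were as alike as their transcripts, 76.7% to 96.4% identical over the aligned bases with a median of 83.5%. The longest words held by the promoters of all 6 members were 2 of 13 bases, found by searching these promoters, so that their presence in the members is no finding. The word shown here is the one that comes before the other in the alphabet, ACCTTTAAAACCC. Among 32851 RefSeq promoters (GRCm38.p6, 250 bases before to 50 bases after each start, both strands) it occurred in 9, or 0.0274%, namely the 6 members, the neighbour Stfa3, and Cstdc3 and Gm7260. The word is shown in capitals within 29 bases, because it marks a stretch shared near the RefSeq starts of these genes. Whether it has a part in their being read in the same cells was not tested. The bounds of Stfa1, Cstdc5 and Stfa2 in the GENCODE annotation reach further out and enclose the word. In Cstdc5 the word ends on the RefSeq start itself and the printed bases run into the transcript. The first base of the word lies 12 to 80 bases before the RefSeq start.
Stfa2l1 (chr16:36156767-36156795, plus): ttacagaaACCTTTAAAACCCtgagtctc
Cstdc4 (chr16:36184172-36184200, plus): ttacagatACCTTTAAAACCCtgactctt
Csta3 (chr16:36210315-36210343, plus): ttacagatACCTTTAAAACCCcgagtctc
Stfa1 (chr16:36277107-36277135, plus): tttcggatACCTTTAAAACCCtgagtctc
Cstdc5 (chr16:36367562-36367590, minus): ttacagatACCTTTAAAACCCcgagtctc
Stfa2 (chr16:36408375-36408403, minus): ttacagaaACCTTTAAAACCCtgagtctc
Stfa3 (chr16:36455406-36455434, minus): tacagataACCTTTAAAACCCcgagtctc
Of 3 short motifs searched on both strands of the same promoters, TTGCNNAA (C/EBP type) was in 3 of 6 members and in 10.8% of all promoters, AGGAAG (PU.1 or ETS type) in 4 of 6 and in 35.4%, and TATAAA in 0 of 6 and in 13.6%. The letters of TTGCNNAA were found in Csta3, Stfa1 and Cstdc5, whose promoters are 90.8% to 96.4% identical, so these are not independent matches.

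To see how much of the neutrophil transcriptome the family took, reads were summed over the gated cells of each pool. The family reached 3615 CPM in WT day 3 (95% Poisson interval 3470 to 3764), 1363 CPM in WT day 5 (1117 to 1647), 5886 CPM in Ccr2-/- day 3 (5815 to 5958) and 6368 CPM in Ccr2-/- day 5 (6314 to 6422). The pools thus ran from WT day 5 through WT day 3 and Ccr2-/- day 3 to Ccr2-/- day 5. The intervals of neighbours in this order did not overlap, but this does not rank the pools. They cover counting error of reads only, not of molecules, and not the spread between cells. In WT day 3, 1 cell held 23.0% of the family reads, and without it the sum was 2838 CPM, below the interval. Since 1 pool stands for each condition, the spread between mice is unknown. Within the neutrophil-like clusters the family was at 4800 CPM in WT day 3, 2942 CPM in 4 cells of WT day 5, 7088 CPM in Ccr2-/- day 3 and 6784 CPM in Ccr2-/- day 5, so that the order of the days in Ccr2-/- mice turned around. On the log2 scale the genotype means over the whole gate were 12.58 for Ccr2-/- and 11.12 for WT, a difference of 1.46. The WT mean includes WT day 5, whose value differs most between the gate and the neutrophil-like clusters. With 6 arrangements of the 4 pools, an exact two-sided permutation test can give no p below 0.33, so its result is not used here. The design can therefore not separate the genotypes.

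Cstdc4 gave the most reads of the 6, followed by Stfa2l1, Cstdc5 and Stfa2 in the Ccr2-/- pools. Cstdc4 was at 1569 CPM in WT day 3, 815 CPM in WT day 5, 2872 CPM in Ccr2-/- day 3 and 3077 CPM in Ccr2-/- day 5. Stfa2l1 was at 1334, 331, 1583 and 1751 CPM in the same order of pools. Both were read in every pool and both were lowest in the 5 cells of WT day 5. Cstdc5 was at 531, 191, 768 and 911 CPM. Stfa2, the near copy of Stfa2l1, was at 44.5 and 12.7 CPM in the WT pools and at 465 and 425 CPM in the Ccr2-/- pools. Stfa2 was the member whose WT and Ccr2-/- values stood furthest apart, and its WT day 3 value came from 29 reads in 7 of 56 cells, 65.5% of them in 1 cell. Csta3 was at 106 CPM in WT day 3, 168 CPM in Ccr2-/- day 3 and 177 CPM in Ccr2-/- day 5, and had no read in WT day 5, where 3 reads would have been 38.2 CPM. Stfa1 was the lowest member of each Ccr2-/- pool at 29.8 and 26.0 CPM, with 30.7 CPM in WT day 3 and 1 read in WT day 5. Within the neutrophil-like clusters, Cstdc4 was at 2080, 1760, 3478 and 3294 CPM and Stfa2l1 at 1768, 715, 1932 and 1819 CPM in the same order of pools. There Cstdc4, Stfa2l1 and Csta3 (201 and 191 CPM) were lower on day 5 than on day 3 of Ccr2-/- mice, unlike in the whole gate. Cstdc5 was higher on day 5 there too, at 911 and 999 CPM.

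Because the transcripts differ in length, levels of different genes are compared per kb of the longest annotated transcript. Whether reads scale with transcript length in this library was not tested, and the scale decides the order, since Cstdc4 leads by reads and has the longest annotated transcript of the 6 (1859 bases). Per kb, Stfa2l1 was the highest member in all 4 pools, at 4179 CPM per kb in Ccr2-/- day 5 against 1655 for Cstdc4, 1472 for Cstdc5, 903 for Stfa2, 604 for Csta3 and 42.2 for Stfa1. In WT day 3 Stfa2l1 was at 3184 CPM per kb, Cstdc5 was at 858, Cstdc4 at 844, Csta3 was at 360, Stfa2 at 94.5 and Stfa1 at 49.8. Stfa1 was thus the lowest in both, although its transcript is the near copy of Cstdc5.

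**Figure D1:**
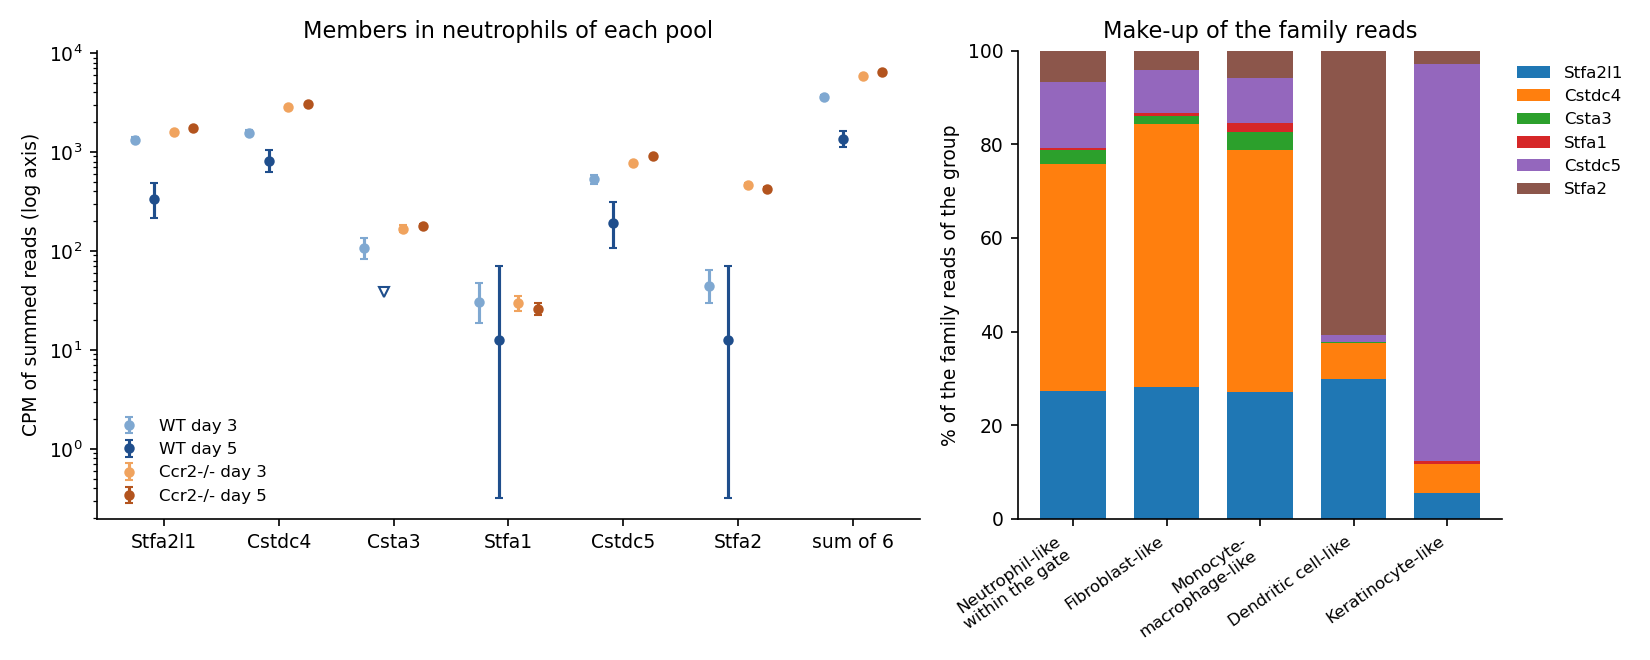
Left, CPM of summed reads (log axis) of each member and of their sum in the neutrophils of the 4 pools, with 95% Poisson intervals, and an open triangle at the level of 3 reads where no read was found; Cstdc4 runs from 815 to 3077 CPM and Stfa1 stays at 30.7 CPM or below. Right, share of the family reads (%) that each member gives in 5 cell groups; Stfa2 makes up 60.7% in dendritic cell-like cells and Cstdc5 84.8% in keratinocyte-like cells, while Cstdc4 leads in the other 3 groups.

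The pools of 2 pairs held at least 20 gated cells each and were compared by fold on the scale of CPM + 1. Between Ccr2-/- day 3 and WT day 3 the family sum was 1.63-fold higher (log2 0.70), with a median log2 fold of -0.15 over the 9544 genes compared. Stfa2 was 10.2-fold higher and was the only member past 2-fold, with 1 of 6 members 2-fold or more higher against 24.0% of all genes and 0 of 6 lower against 24.5%. Cstdc4 was 1.83-fold, Csta3 1.58-fold, Cstdc5 1.45-fold, Stfa2l1 1.19-fold and Stfa1 0.972-fold the WT value. A share of 1 in 6 is no more than the background of this pair. Without the cell with the most family reads of each pool, the sums were 2838 CPM in WT day 3, which moved because that cell held 23.0% of the reads, and 5671 CPM in Ccr2-/- day 3. From day 3 to day 5 in Ccr2-/- mice the family sum was 1.08-fold (log2 0.11, and -0.06 within the neutrophil-like clusters), with members between 0.877-fold for Stfa1 and 1.19-fold for Cstdc5, and 0 of 6 members passed 2-fold in either direction against 5.78% of 8791 genes higher and 11.2% lower. These folds compare pools and have no replicate check. Fibroblast markers, read for 6 of 6 genes in each pool, summed to 1541 and 9898 CPM in the gated cells of WT day 3 and Ccr2-/- day 3 and to 3564 CPM in Ccr2-/- day 5, and to 1612, 1604 and 2041 CPM in the gated neutrophil-like cells, where the family fold between the genotypes on day 3 was 0.56 on the log2 scale.

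The family was read in most neutrophils at this depth but was spread unevenly. With each cell thinned to 3000 reads, 64.3% of the neutrophils of WT day 3 had a family read (95% Clopper-Pearson interval 50.4% to 76.6%), 80.0% of the 5 of WT day 5 (28.4% to 99.5%), 65.3% of Ccr2-/- day 3 (59.9% to 70.4%) and 62.0% of Ccr2-/- day 5 (58.4% to 65.6%). Unthinned, the shares were 67.9%, 80.0%, 70.4% and 66.3%. The 4 intervals overlapped, whereas fibroblast-like cells, which served as the background, had a family read in 1.29% to 2.60% of cells in the 4 pools at the same 3000 reads. Median depths before thinning were 8572 to 10312 reads in the gate and 121765 reads in fibroblast-like cells.

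Among single cells the family ranged over the full scale in the same pool. In Ccr2-/- day 5 the median cell had 1630 CPM, its 75th percentile was 8996 CPM, its 90th percentile 20610 CPM, and the highest cell had 73077 CPM, while 242 of 719 cells (33.7%) had no family read. In Ccr2-/- day 3 the median was 1857 CPM, the same percentiles were 8147 and 19819 CPM, the highest cell had 67876 CPM, and 98 of 331 cells (29.6%) had none. WT day 3 had a median of 1255 CPM, a highest cell of 42758 CPM and 18 of 56 cells (32.1%) without a read. The 5 gated cells of WT day 5 had 9845, 3937, 1567, 210 and 0 CPM, and the cell at 0 was the fibroblast-like barcode. The medians of the WT day 3 and the Ccr2-/- pools were closer than the sums. At 10000 CPM or more stood 7 of 56 cells of WT day 3 (12.5%, 95% Clopper-Pearson interval 5.18% to 24.1%), 68 of 331 of Ccr2-/- day 3 (20.5%, 16.3% to 25.3%) and 168 of 719 of Ccr2-/- day 5 (23.4%, 20.3% to 26.6%), with overlapping intervals. The 72 highest of the 719 cells of Ccr2-/- day 5 held 51.8% of its family reads, and the 33 highest of Ccr2-/- day 3 held 56.1%. The coefficient of variation between cells was 1.64 and 1.60 in these pools.

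**Figure D2:**
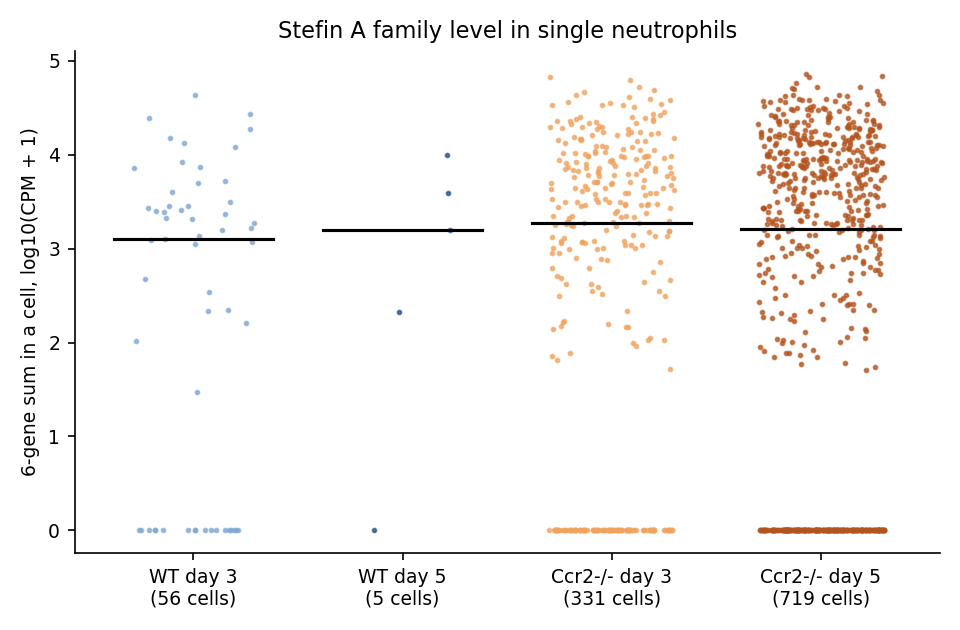
Family level of each neutrophil as log10(CPM + 1) by pool, with 1 point per cell and a line at the median of the pool; points at 0 are cells without a family read. Medians lie between 1255 and 1857 CPM in all 4 pools, and 20.5% and 23.4% of the cells of the Ccr2-/- pools stand at 10000 CPM or more.

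Both neutrophil-like clusters held the family. Cluster 1, led by Il1a, Fpr2, Hcar2 and Il1rn, had 7463 CPM in 224 gated cells of Ccr2-/- day 3 and 6930 CPM in 399 of Ccr2-/- day 5, and cluster 5, led by Mrgpra2b, S100a9 and S100a8, had 6106 CPM in 96 cells and 6569 CPM in 298. In WT day 3 the order of the sums was the other way round, with 3286 CPM in 15 cells of cluster 1 and 5516 CPM in 35 cells of cluster 5. There 1 cell of cluster 5 held 542 of its 1823 family reads. The median cell of WT day 3 was at 1650 CPM in cluster 1 and 1367 CPM in cluster 5. At 3000 reads 60.7% to 64.3% of the cells of cluster 1 and 63.4% to 67.7% of those of cluster 5 had a family read in the Ccr2-/- pools. The median cell was at 2600 CPM in cluster 1 and 1533 CPM in cluster 5 of Ccr2-/- day 3, and at 1715 and 1651 CPM in Ccr2-/- day 5.

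To see what lies on either side of the gate, cells were binned by S100a8 and S100a9. Just below it, at 2000 to 5000 CPM, the family was at 1968 CPM in 43 cells of Ccr2-/- day 3 and at 1591 CPM in 56 of Ccr2-/- day 5. Just above it, at 5000 to 10000 CPM, it was at 2125 CPM in 56 cells and 3002 CPM in 80. At 100000 CPM or more of the pair it was at 11666 CPM in 16 cells and 9159 CPM in 51. In the neutrophil-like cells of these bins alone the family was higher, at 3708 and 2885 CPM just below the gate in Ccr2-/- day 3 and day 5 and at 4371 and 4260 CPM just above it. The family did not rise with S100a8 and S100a9 in every bin, since in Ccr2-/- day 5 it was at 9621 CPM between 50000 and 100000 CPM of the pair and at 9159 CPM above that. Across cells the correlation was weak (Pearson r = 0.18 over 331 cells and 0.19 over 719, log2 scale). Its correlation with the depth of a cell was 0.01 and 0.07, with the mitochondrial share -0.03 and 0.06, and with the genes detected at 3000 reads -0.06 and -0.02. Neutrophil-like cells below the gate, 82 in Ccr2-/- day 3 and 95 in Ccr2-/- day 5, still had 3135 and 2692 CPM of the family, at 1624 and 1977 CPM of S100a8 and S100a9.

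Members tended to be read in the same cells. At 3000 reads, 29.6% of the neutrophils of Ccr2-/- day 3 and 28.8% of Ccr2-/- day 5 had reads of 3 or more members, and 5 and 11 cells had reads of all 6. In Ccr2-/- day 5, Stfa2l1 was read in 77.7% of the 359 cells with Cstdc4 and in 21.1% of the 360 cells without it. Stfa2 was read in 41.1% of the 355 cells with Stfa2l1 and in 0.549% of the 364 without it. Csta3 was read in 37.4% of the 187 cells with Cstdc5 and in 2.63% of the 532 without it. Stfa1 was read in 34 cells with Cstdc5 and 3 without. The rarer members were thus read almost entirely in cells that had the more abundant ones. The transcripts of Stfa2 and Stfa2l1 and of Stfa1 and Cstdc5 share 50-base windows, whose part in these counts was not tested.

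**Figure D3:**
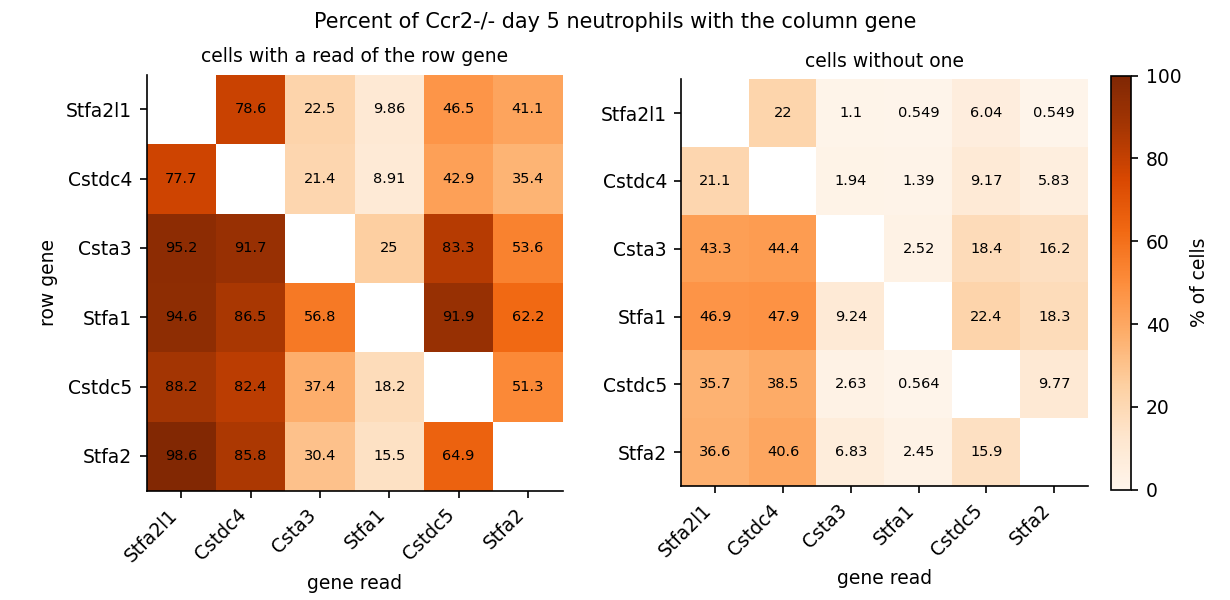
Percent of the 719 neutrophils of Ccr2-/- day 5, thinned to 3000 reads, that had a read of the column gene, among cells with (left) and without (right) a read of the row gene, in chromosomal order. Values run from 8.91% to 98.6% on the left and from 0.549% to 47.9% on the right.

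Ranked by correlation, the pairs of members stood in another order than by transcript identity. The highest r was that of Stfa2l1 with Cstdc4, 0.63 in Ccr2-/- day 3 and 0.62 in Ccr2-/- day 5, a pair whose transcripts are 78.2% identical and share no 50-base window. Cstdc4 and Stfa2l1 are also the members with the most reads, and the part of read number in this order was not tested. Stfa2 and Stfa2l1, 96.0% identical, had r = 0.52 and 0.55, and Stfa1 and Cstdc5, 97.1% identical, had 0.41 and 0.38. All 15 pairs were positive in both pools, from 0.19 to 0.63. These correlations are across 331 and 719 cells of 1 library, are limited by the few reads of the rarer members, and are descriptions, since the members were picked for rising together.

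To find other genes that follow the family, its thinned level was correlated across the neutrophils of each Ccr2-/- pool with the 2814 other genes read in at least 5% of cells of both. Against the sum of the other 5, Stfa2l1 had r = 0.65 and 0.70, Cstdc4 0.62 and 0.64, Cstdc5 0.44 and 0.50, Stfa2 0.44 and 0.49, Csta3 0.30 and 0.35 and Stfa1 0.26 and 0.24. No other gene reached 0.3 in either pool. The highest non-member was Cxcl3 at 0.21 in Ccr2-/- day 3 and S100a9 at 0.16 in Ccr2-/- day 5, with 90% of the others between -0.10 and 0.09 and between -0.07 and 0.07. Taking the lower of both values, the genes most like the family were led by S100a9 (0.20 and 0.16) and S100a8 (0.13 and 0.13), the pair that also set the gate. Others among them were Lilr4b and Lilrb4a, receptors of myeloid cells, Hp, the haemoglobin-binding haptoglobin, AC109138.2, Sirpb1c, the histone gene H3f3a and Rflnb. The 5 least like were F10, coagulation factor X (-0.13 and -0.15), Bag1, 1700017B05Rik, B4galt1 and Supt4a. At 10000 reads per cell, which kept 173 and 342 cells, S100a9 stayed among the 10 most like and none of the 5 stayed among the least like. With such weak values in sparse reads, none of these genes is a finding.

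**Figure D4:**
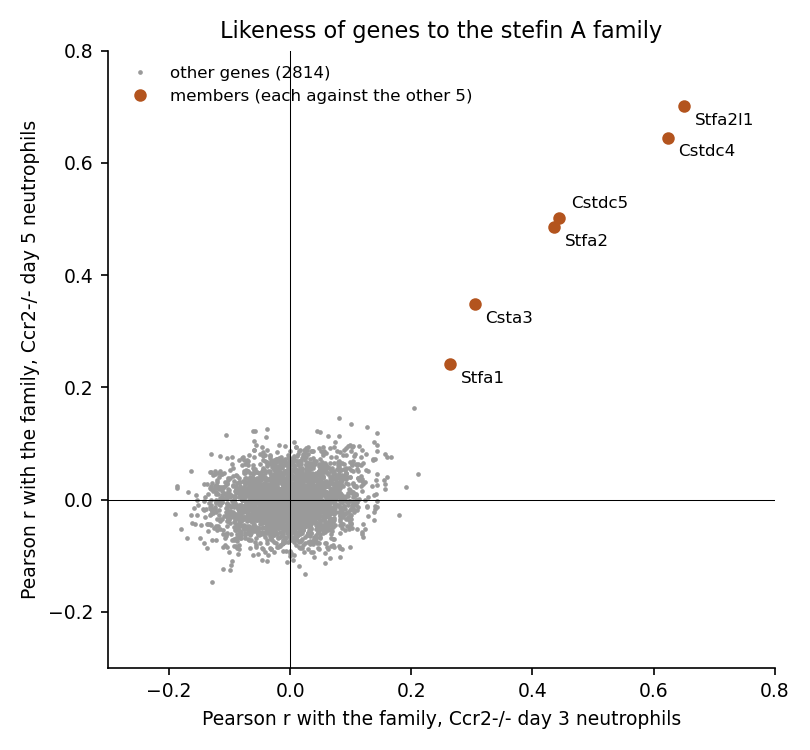
Pearson r of each gene with the family level across neutrophils of Ccr2-/- day 3 (x) and Ccr2-/- day 5 (y), thinned to 3000 reads; grey points are 2814 other genes and orange points the members, each against the sum of the other 5. The members stand at 0.24 to 0.70 and no grey point exceeds 0.21 on either axis.

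The other genes of the pathway were taken as lists. Of the 7 other genes of the stefin and cystatin-domain list with a row, none was read in 5% of the neutrophils of both Ccr2-/- pools once cells were thinned to 3000 reads. Unthinned, Cstdc6 had a read in 82 of 1071 gated neutrophil-like cells. Stfa3 was the most abundant of them, at 79.4 and 38.6 CPM in the Ccr2-/- pools and 0 in both WT pools. Cstdc6 was at 14.5 and 17.4 CPM, Csta1 at 6.01 and 4.30, Csta2 at 2.89 and 2.87 and Cstdc3 at 0.223 and 0.239 CPM there, and Cstdc1 and Cstdc2 were at 0 in the gate. Among other cystatins, Cst3, the secreted cystatin C, was at 789 and 794 CPM and Cstb, the cytosolic stefin B, at 526 and 566 CPM, both with slightly negative r (-0.06 and -0.04, and -0.09 and -0.05), while Cst7 was at 25.6 and 19.9 and Cst6 at 1.34 and 2.39 CPM.

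Cathepsins are the proteases that stefins bind. Ctsb was at 643, 293, 582 and 521 CPM in the neutrophils of the WT pools of day 3 and day 5 and the Ccr2-/- pools of the same days against 1190 CPM in all other cells. Ctss was at 830, 0, 234 and 265 CPM against 483, Ctsz at 359, 0, 248 and 181 against 281, Ctsl at 295, 611, 161 and 203 against 1045, and Ctsh at 144, 0, 74.1 and 83.5 against 202. Ctsc, which activates the serine proteases of granules, was at 427 CPM in WT day 3 and at 17.4 and 47.8 CPM in the Ccr2-/- pools, against 137 CPM in other cells, so that WT and Ccr2-/- neutrophils lay on opposite sides of that level. Lgmn, on the same list but encoding legumain, which is not a papain-like cathepsin, was at 227 CPM in WT day 3 and at 34.7 and 100 CPM in the Ccr2-/- pools. Ctsk was at 7.67, 85.0 and 35.5 CPM in these 3 pools, where Ctsf, Ctso and Ctsw were each under 10 CPM. In the 5 cells of WT day 5, Ctsc and Ctsk were at 153 CPM from 12 reads each. Monocyte-macrophage markers, of which 7, 8 and 8 of 8 were read in these 3 pools, summed to 2402 CPM in the gate of WT day 3 against 541 and 777 CPM in the Ccr2-/- pools, and their part in the cathepsin values was not tested. Fibroblast markers summed to 1541 and 18428 CPM in the gate of WT day 3 and day 5, and to 9898 and 3564 CPM in the Ccr2-/- pools. Their part in the cathepsin values, such as those of Ctsl and Ctsk in WT day 5, was not tested either. Across cells 5 cathepsins could be correlated with the family, 3 above and 2 below 0 on day 3 and 2 above and 3 below on day 5, with all values between -0.13 and 0.04.

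The remaining lists also stayed near 0. Over all 2814 genes, 1344 were above and 1470 below 0 in Ccr2-/- day 3 and 1350 and 1464 in Ccr2-/- day 5. Of 12 inflammatory genes, 11 were above 0 on day 3 and 8 on day 5 with medians of 0.06 and 0.02, among them the neutrophil chemoattractant Cxcl2 (31143 and 35264 CPM, r = 0.13 and 0.08), Il1b (18049 and 22246 CPM, 0.03 and 0.09) and Ccl4 (8576 and 8695 CPM, 0.08 and 0.01). Of 10 receptors of chemotaxis and survival, 9 and 8 were above 0 with medians of 0.07 and 0.06, among them Cxcr2 (0.08 and 0.05), Csf3r (0.04 and 0.09) and Ccr1 (0.11 and 0.06). Of 4 granule genes that could be correlated, 3 and 4 were above 0 with medians of 0.05 and 0.06, with the gelatinase Mmp9 at 830 and 981 CPM, the resistin-like Retnlg at 407 and 691 CPM and the iron-binding Lcn2 at 247 and 447 CPM, while the primary granule genes Elane, Mpo and Prtn3 were at 1.31 CPM or less in the Ccr2-/- pools. Of 4 other protease inhibitors, 2 and 4 were above 0 with medians of 0.05 and 0.05, among them Wfdc17 (591 and 696 CPM), Timp2 (400 and 228 CPM) and Slpi, which inhibits neutrophil elastase (r = -0.03 on day 3, and 278 CPM on day 5). Of 6 interferon-stimulated genes, 4 and 5 were above 0 with medians of 0.05 and 0.05, among them Ifitm3 (1616 and 1064 CPM), Isg15 (500 and 420 CPM) and Rsad2 (406 and 434 CPM).

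Outside the gate the family was read at a low level in most cell groups. It was at 6.56 CPM in the other cells of WT day 3 (95% Poisson interval 6.04 to 7.12), 7.62 CPM in WT day 5 (6.98 to 8.30), 24.8 CPM in Ccr2-/- day 3 (24.0 to 25.6) and 38.5 CPM in Ccr2-/- day 5 (37.5 to 39.5). These other cells include the neutrophil-like cells below the gate, which gave 26 of 583 family reads in WT day 3, 13 of 518 in WT day 5, 2386 of 3920 in Ccr2-/- day 3 and 2546 of 5386 in Ccr2-/- day 5. With them counted among the other cells, neutrophils were 551, 179, 237 and 165 times as high. They held 80.2% of the family reads of WT day 3 and 17.1% of WT day 5, and 87.1% and 90.8% of the Ccr2-/- pools of these days, and in WT day 5 the largest part, 36.6%, lay in 456 monocyte-macrophage-like cells at 8.63 CPM, 96 of their 229 reads in 1 cell. Fibroblast-like cells were at 3.08, 4.67, 9.53 and 12.3 CPM in the 4 pools and monocyte-macrophage-like cells at 4.70, 8.63, 7.44 and 23.2 CPM, the last with 135 of its 163 reads in 1 cell. T cell-like cells (at most 6.66 CPM in a pool and 2.79 CPM over all), lymphatic endothelial cell-like cells (4.49, 0, 3.41 and 2.95 CPM) and mast cell-like cells were at the lower end, and the 16 B cell-like cells had no family read. Single barcodes weighed on some groups: 249 of the 447 family reads of endothelial cell-like cells in Ccr2-/- day 5 and 270 of the 276 of 15 pericyte or smooth muscle-like cells lay in 1 cell.

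**Figure D5:**
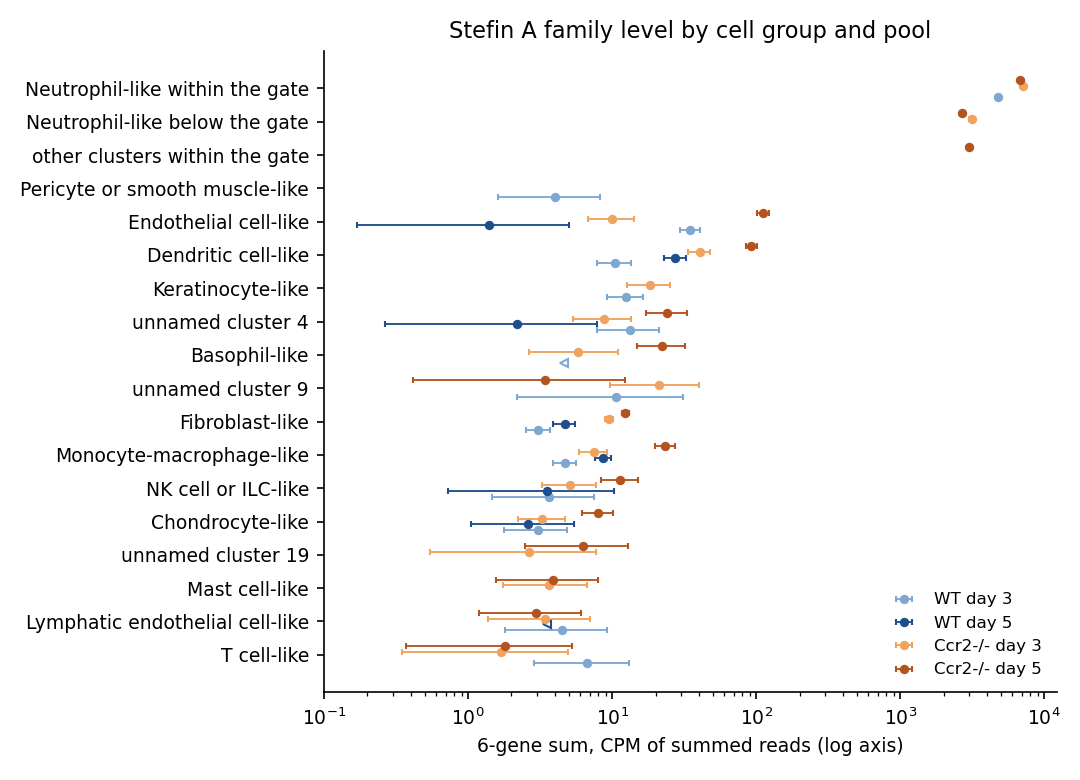
Family level as CPM of summed reads (log axis) in each cell group and pool with at least 20 cells, with 95% Poisson intervals, and open triangles at the level of 3 reads where none was found. Neutrophil-like cells within the gate stand at 4800 to 7088 CPM, those below it at 2692 and 3135 CPM and the gated cells of other clusters at 3021 CPM; other groups lie far lower, with dendritic cell-like cells of Ccr2-/- day 5 at 92.3 CPM and endothelial cell-like cells of the same pool at 111 CPM.

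The make-up of these reads differed between cell types. In gated neutrophil-like cells Cstdc4 gave 48.6% of the family reads, Stfa2l1 27.3%, Cstdc5 14.1%, Stfa2 6.78%, Csta3 2.82% and Stfa1 0.461%. Fibroblast-like cells had a similar order, with Cstdc4 at 56.2%, Stfa2l1 at 28.1%, Cstdc5 at 9.18% and Stfa2 at 4.11% of 2484 reads, and so did monocyte-macrophage-like cells with 51.6%, 27.2%, 9.75% and 5.71% of 595. Neutrophil-like cells below the gate matched those within it, with 47.7%, 30.7%, 11.1% and 6.92%. Chondrocyte-like cells differed, with Stfa2l1 at 58.7% and Cstdc4 at 28.1% of 121 reads, and 21 of the 71 Stfa2l1 reads lay in 1 cell.

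In dendritic cell-like cells, the antigen-presenting cells that carry peptides to T cells, Stfa2 led instead in 3 of 4 pools. Over all pools it gave 498 of 820 family reads, 60.7% (95% Clopper-Pearson interval 57.3% to 64.1%), Stfa2l1 29.9% and Cstdc4 7.68%, with 13 reads of Cstdc5, 1 of Csta3 and none of Stfa1, which allows up to 3 reads. Stfa2 took 63.6% of the family reads of these cells in WT day 3, 47.7% in WT day 5, 32.0% in Ccr2-/- day 3 and 71.0% in Ccr2-/- day 5, against 6.78% in gated neutrophil-like cells. The lower ends of the intervals were 49.6%, 38.9%, 24.1% and 66.8%, but the intervals treat reads of 1 cell as independent. In the same order of pools, the Stfa2 reads came from 3, 6, 6 and 9 cells, with 29 of 35, 21 of 62, 21 of 41 and 138 of 360 in 1 cell. In Ccr2-/- day 3 Stfa2l1 led, with 72 reads against 41 of Stfa2, and 360 of the 498 Stfa2 reads came from Ccr2-/- day 5. Its level was 6.65, 13.1, 13.0 and 65.5 CPM in the same order of pools, against 44.5, 12.7 (1 read), 465 and 425 CPM in the gated neutrophils. The reads came from 24 of 333 cells, 11 of which had no read of S100a8 or S100a9 and 21 of which had 3 or fewer, and 138 of the 498 reads lay in 1 cell. All 498 lay in the larger of the 2 dendritic cell-like clusters (280 cells, led by Septin3, Timd4, Flt3 and Btla) and none in the smaller, Siglech-led one of 53 cells. Per 1000 reads of S100a8 and S100a9, these cells had 4297 family reads in Ccr2-/- day 5 and 1016 in Ccr2-/- day 3, against 1361 and 1930 in neutrophil-like cells below the gate. Fibroblast-like cells had 240 in Ccr2-/- day 5. At 3000 reads, 11.1% of dendritic cell-like cells (interval 5.46% to 19.5%) had a family read in Ccr2-/- day 5 and 9.26% (3.08% to 20.3%) in Ccr2-/- day 3, against 1.65% (0.756% to 3.11%) and 2.60% (1.55% to 4.09%) of fibroblast-like cells. In the WT pools the shares were 1.87% and 6.10% against 1.29% and 2.06%. The intervals overlapped in the WT pools and in Ccr2-/- day 3, but not in Ccr2-/- day 5.

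In keratinocyte-like cells, the epithelial cells of the epidermis, Cstdc5 led. It gave 123 of 145 family reads, 84.8% (77.9% to 90.2%), against 14.1% in neutrophils, with 86.0% in WT day 3, 83.3% in Ccr2-/- day 3 and 86.2% in Ccr2-/- day 5, and 0 of 1 read in WT day 5. Its level was 10.7 CPM in 29 cells of WT day 3, 15.1 CPM in 20 of Ccr2-/- day 3 and 17.7 CPM in 19 of Ccr2-/- day 5. The reads came from 9 of 73 cells, each with 3 or fewer reads of S100a8 and S100a9 and 5 with none, and 30 lay in 1 cell. By pool they came from 3 cells of WT day 3, 4 of Ccr2-/- day 3 and 2 of Ccr2-/- day 5. In these pools 27 of 43, 14 of 30 and 30 of 50 reads lay in 1 cell. The interval above treats reads of 1 cell as independent. Stfa1, the near copy of Cstdc5, gave 1 read in these cells. Of the neighbours outside the 6, Stfa3 gave 19 reads there, Csta1 gave 3 and Csta2 and Cstdc6 gave none. The part of free RNA and of doublets within a pool in the dendritic and keratinocyte-like reads was not tested beyond these counts.

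Across the 54 groups of cell type and pool with at least 20 cells, the pattern most like that of the family was that of its neighbour Cstdc6 (Pearson r = 0.90, log2 CPM + 1), followed by S100a9, Trem1, S100a8, Fpr1 and Treml4 at 0.89, Gm2396, Gm26756 and Il23a at 0.88 and Fpr2 at 0.87, with the members themselves between 0.90 for Stfa1 and Stfa2 and 0.96 for Stfa2l1 and Cstdc4. The points share 1 library and the neutrophil-like groups stand far above the rest, so r says little beyond that these genes, too, are read chiefly in neutrophils.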

How the data were processed

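The deposited matrix holds read counts per gene and cell barcode and a second deposited table the hashtag read counts. Per the labels and methods, the authors trimmed reads with Cutadapt and mapped them with Bowtie2 to mouse Ensembl RNA (GRCm38.p6) after TAS-Seq on the BD Rhapsody system; whether their background correction entered the matrix is not given in the sources used here. The counts are reads, not molecules, and intervals cover counting error of reads only. Barcodes with under 10 hashtag reads (760), a leading hashtag under 3 times the next (570) or over 20% mitochondrial reads (505 of the rest) were left out, and 9 other hashtag columns were not used. No doublet caller was run: doublets of 2 pools fall under the hashtag rule, and those within a pool remain. Clusters were built with scanpy 1.11.5 and leidenalg 0.10.2 (2000 variable genes, 30 components, 20 neighbours, resolution 1) without the stefin and cystatin genes and named by marker lists. CPM is per 1000000 reads of a group of cells; thinning drew 3000 reads per cell. Python 3.11.15, scipy 1.17.1 and biopython 1.88 were used. Depth was 68064673 to 162572556 reads per pool and 78521 to 8373757 in the gate. Members, lists and tests were chosen with earlier results of these data known. Named genes are the 6 members, the genes of the stefin, cystatin and cathepsin lists, the 3 most abundant of each other list and any with an absolute r of at least 0.3 in both Ccr2-/- pools (none had), and the 10 most and 5 least like the family by r among neutrophils, with the 10 most like over cell groups; Cxcl3, the Elane, Mpo and Prtn3 values, the shared 13-base word and the make-up in dendritic and keratinocyte-like cells were added after the values were seen. Of the genes that this rule names, 1 is not reported here. Scripts were tested on simulated data.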

Additional observations from a re-analysis of the deposited data

Results flagged for a closer look

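Barcodes outside the 4 pools also held family reads. Of the 570 barcodes with several hashtags, 57 passed the neutrophil gate and had 3498 CPM of the family (95% Poisson interval 3390 to 3610). Of the 760 with too few hashtag reads, 4 passed it and had 13242 CPM (12013 to 14563), and of the 505 with 1 hashtag but over 20% mitochondrial reads, 2 passed it and had 3784 CPM (2826 to 4962). All 3 values are above the level of 3 reads, which was 2.68, 93.5 and 218 CPM, and they entered no comparison.

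The family sum in neutrophils differed between the days in opposite directions in the 2 genotypes, from 3615 to 1363 CPM in WT and from 5886 to 6368 CPM in Ccr2-/-. The difference between these changes was not tested, since WT day 5 has 5 gated cells. Within the neutrophil-like clusters it was lower on day 5 in both genotypes, at 2942 CPM after 4800 in WT mice and at 6784 CPM after 7088 in Ccr2-/- mice.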

How the results depend on the processing

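With 1 pool per condition no replicate was left out, intervals cover counting error only, and WT day 5 rests on 5 gated cells. No paired analysis was possible because no group has replicates. Pools are given as WT3, WT5, KO3 and KO5 (WT or Ccr2-/-, with the day), and values that moved by less than their interval are left out.

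The family CPM in neutrophils became 2845 (WT3), 5364 (KO3) and 5749 (KO5) with a gate of 2000 CPM, and 5736, 2957, 8159 and 7645 in all 4 pools with a gate of 20000 CPM. Within neutrophil-like clusters it was 4800, 2942, 7088 and 6784. With a hashtag of at least 10 times the next it was 3926, 1691, 5505 and 6591, as a mean over single cells 4098, 3112, 6497 and 6768, and without the cell with the most family reads of each pool, an alternative chosen after seeing the data, 2838, 700, 5671 and 6272. Without cells of over 100000 reads it was 6802 (KO3) and 6552 (KO5), and with at most 10% mitochondrial reads 6312 (KO5). The percent of neutrophils with a family read was 100 in WT5 with the gate of 20000 CPM, the neutrophil-like clusters or the stricter hashtag, 70.5 (KO3) and 68.1 (KO5) at 10000 reads, and 57.7 (KO5) with at least 2 reads.

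Neutrophils held 84.7, 34.6, 91.6 and 94.2% of the family reads with the gate of 2000 CPM and 73.6, 9.44, 66.7 and 72.1% with that of 20000 CPM. They held 84.3% (KO3) and 86.1% (KO5) within neutrophil-like clusters, 10.1% (WT5), 86.0% (KO3) and 91.9% (KO5) with the stricter hashtag, 90.5, 25.7, 90.0 and 93.3% without cells of over 100000 reads, and 83.7% (WT3) with the mitochondrial limit.

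The log2 fold of the family for KO3 over WT3 was 0.96 with median-of-ratios size factors and 0.56 within neutrophil-like clusters. For KO5 over KO3 it was 0.16 with the size factors and 0.06 as a mean over cells, and it reversed to -0.06 within neutrophil-like clusters. Without the filter on low values, 5722 genes were 2-fold or more higher and 3616 lower in KO3 over WT3, and 2104 and 2243 in KO5 over KO3. Of the 10 genes most like the family, 2 were among the 10 at 10000 reads per cell. Of 192 member levels under the alternatives, 86 lay within the interval of the reported value and 106 did not.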
